A study of Rattus norvegicus with 7 samples.

Results

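The cerebellum of the weanling rat on a standard diet was described from the 4 control (CTRL) arrays among the 7 arrays of the series. The arrays were chosen by their group label alone, and no measured value entered the choice. Each array held Cy3-labelled total RNA from the ground cerebellum of 1 female Wistar pup killed at 21 days of age. The dams of these pups had eaten standard chow since a month before mating, and no pup carried a transgene or a deletion. The other 3 arrays of the study came from pups of dams on a methyl donor deficient diet (MDD) and were not analysed here. The labels call the 4 pups biological replicates and name no dam, so pups of shared litters could not be recognised, and every spread below is a spread between these 4 samples.

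The cerebellar cortex is built from a few neuron classes in a fixed layout. Very many small granule neurons excite Purkinje cells, which carry the only output of the cortex and inhibit the deep nuclei, while stellate, basket and Golgi interneurons shape both. Bergmann glia, a radial astrocyte, surround the Purkinje cells, and around weaning the last granule neurons have been made and the white matter is being myelinated.

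Each array carried 30362 usable probes, of which 18353 could be given the name of a RefSeq gene, and these covered 15442 genes. Between 74.13% and 79.57% of spots were well above background by the scanner software's own call, and 0 spots were saturated. Values below are log2 signals relative to the 75th percentile of the same array, so 0 means as bright as a probe at that percentile. That percentile lay at 972, 1534, 1384 and 1207 intensity units in replicates 1 to 4, so replicate 1 was the dimmest array. A gene was represented by its brightest probe. Brightness depends on the probe's sequence as well as on the amount of RNA, so the ranks below are ranks of probe signal among 27451 genes and unnamed probes, and not of molecules. Among the 2667 genes with more than 1 probe, the probes of a gene differed by a median of 2.10 log2 units, and by 3 or more in 915 of them (34.3%).

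The 4 animals differed in signals that are not typical of cerebellum. The median SD over all genes and probes, 0.149 log2 units, was the same without the liver, muscle, red cell, choroid plexus and meninges lists. These hold only 10, 18, 10, 22 and 27 of the 18780 genes and probes measured for spread. Leaving out so few could not move that median, so it does not show whether such signals matter. Of 29 liver and plasma-protein genes on the array, 10, 21, 12 and 21 were well above background in replicates 1 to 4. Of 27 genes of skeletal and heart muscle, 19, 19, 25 and 19 were, and 20 of the 27 were highest in replicate 3. Genes of red blood cells, meninges and choroid plexus were lowest in replicate 1 in 7 of 10, 19 of 27 and 15 of 22 measured cases. Over all 11326 named genes measured for spread, replicates 1 to 4 were highest for 33.3%, 25.7%, 20.6% and 20.4% and lowest for 28.6%, 20.9%, 22.9% and 27.6%, and counts of this kind below are to be read against these shares. The part that other tissue or blood had in these values was not tested. The genes concerned are described with the animal-to-animal spread, and the counts for these 5 lists are also given without the animal that moved them most.

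All 5 marker genes looked up for the label of cerebellum were well above background on all 4 arrays. So were 73.4% of all named genes, which makes that call alone a weak check of the label. Mbp and Snap25, genes of myelin and of all nerve terminals, do not set cerebellum apart from other brain regions. Mbp, which encodes the main basic protein of myelin, gave the highest signal of any named gene, 8.11, 7.89, 7.94 and 7.96 in replicates 1 to 4. Pcp2, a G-protein regulator made almost solely by Purkinje cells in the brain, read 5.70, 5.68, 6.06 and 5.98. Calb1, the calcium buffer calbindin of Purkinje cells, read 2.40, 2.36, 2.34 and 2.17. The 4 animals lay within 0.38 log2 units of each other for each of these genes. Gabra6, a GABA-A receptor subunit of mature granule neurons, read 3.17, 3.33, 3.52 and 3.32. Snap25, a SNARE protein of all nerve terminals, read 4.64, 4.61, 4.75 and 4.68. Their order by mean was Mbp at rank 8, Pcp2 at 144, Snap25 at 578, Gabra6 at 1528 and Calb1 at 2813. Neighbours in that order lay apart by more than the spread between animals (SD from 0.06 for Snap25 to 0.20 for Pcp2, n = 4).

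Lists of cell type genes were read against all named genes, of which 73.4% were well above background on all 4 arrays and 9.86% stood in the brightest 10% of genes and unnamed probes. Of 23 granule neuron genes, 22 were well above background on all 4 arrays and 14 stood in the brightest 10%. Grm4, the presynaptic glutamate receptor of parallel fibres, read 6.83, 6.68, 6.88 and 6.75 and ranked 46. Chgb, a granin of secretory granules, averaged 5.96 ± 0.09 (SD, n = 4). Cbln1, which is secreted by granule neurons to tie their synapses to Purkinje spines, averaged 5.50 ± 0.04. Neurod1, a transcription factor of granule neurons, averaged 5.38 ± 0.16, and Grin2c, the NMDA receptor subunit that mature granule neurons take up, averaged 4.67 ± 0.13. Fewer cells of a type and less RNA per cell cannot be told apart in such bulk tissue.

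Of 28 Purkinje cell genes, 27 were well above background on all 4 arrays and 12 stood in the brightest 10%. Pvalb, a calcium buffer shared with interneurons, read 6.07, 6.11, 6.33 and 6.20. Itpr1, the calcium release channel that Purkinje cells hold in great amounts, read 6.10, 6.14, 6.15 and 5.97. Car8, a partner of that channel, averaged 5.25 ± 0.09, and Pcp4, a calmodulin regulator, averaged 4.09 ± 0.07. Replicate 3 was highest for 12 of the 27 and lowest for none. The exception to detection was Foxp2, a transcription factor of Purkinje cells, whose only probe was not well above background on any array. Lhx5, a developmental factor, had the widest spread of the list, with -3.42, -2.86, -2.59 and -2.51.

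All 21 genes listed for interneurons and deep nuclei were well above background on all 4 arrays, 7 of them in the brightest 10%. Slc32a1, which loads GABA and glycine into vesicles, averaged 4.87 ± 0.13 (SD, n = 4), and Calb2, the calretinin of granule and unipolar brush cells, averaged 4.68 ± 0.05. Cck, a peptide of sparse neurons, was the most uneven of them with 1.91, 2.73, 2.09 and 3.25.

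Glial lists were as fully detected. All 29 genes of Bergmann glia and astrocytes were well above background on all 4 arrays, and 15 stood in the brightest 10%. Aldoc, an aldolase of astrocytes and of zebrin bands of Purkinje cells, read 7.91, 7.92, 7.98 and 7.84 and ranked 11. Cst3 and Ndrg2 averaged 7.06 ± 0.06 and 6.49 ± 0.14, and Slc1a3, the glutamate uptake carrier of Bergmann glia, averaged 5.64 ± 0.11. Gfap, the intermediate filament of astrocytes, was far dimmer, with -0.43, -0.29, 0.03 and -0.36. All 30 myelin and oligodendrocyte genes were detected in the same way, 14 in the brightest 10%. Mag, an adhesion protein of myelin, read 4.49, 4.75, 4.74 and 4.98. Replicate 1 was lowest for 20 of the 30, although Mbp itself was highest there. The median SD of these genes, 0.198, stood above the 0.138 of all named genes by 0.060, and without replicate 1 by 0.034.

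Lists of oligodendrocyte precursor, microglial, endothelial and mural, ependymal, and other blood leukocyte genes held few genes of the brightest 10%. All 12 genes of oligodendrocyte precursors were well above background on all 4 arrays with a median signal of -1.75, and Pdgfra, their growth factor receptor, averaged 0.11 ± 0.22 (SD, n = 4). Among 26 microglial genes 22 were, with a median of -1.96, and C1qb, a complement subunit, averaged 2.11 ± 0.07. All 26 endothelial and mural genes were, and none of them reached the brightest 10%. Slc2a1, the glucose carrier of the blood-brain barrier, read 1.34, 1.82, 1.64 and 2.02. Ependymal and ciliary genes were well above background in 12 of 15 cases, led by the cilia factor Foxj1 at -1.40 ± 0.25. Blood leukocyte genes other than microglial ones were in 4 of 21, and Cd3e and Ccr2 were on none of the arrays.

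**Figure D1:**
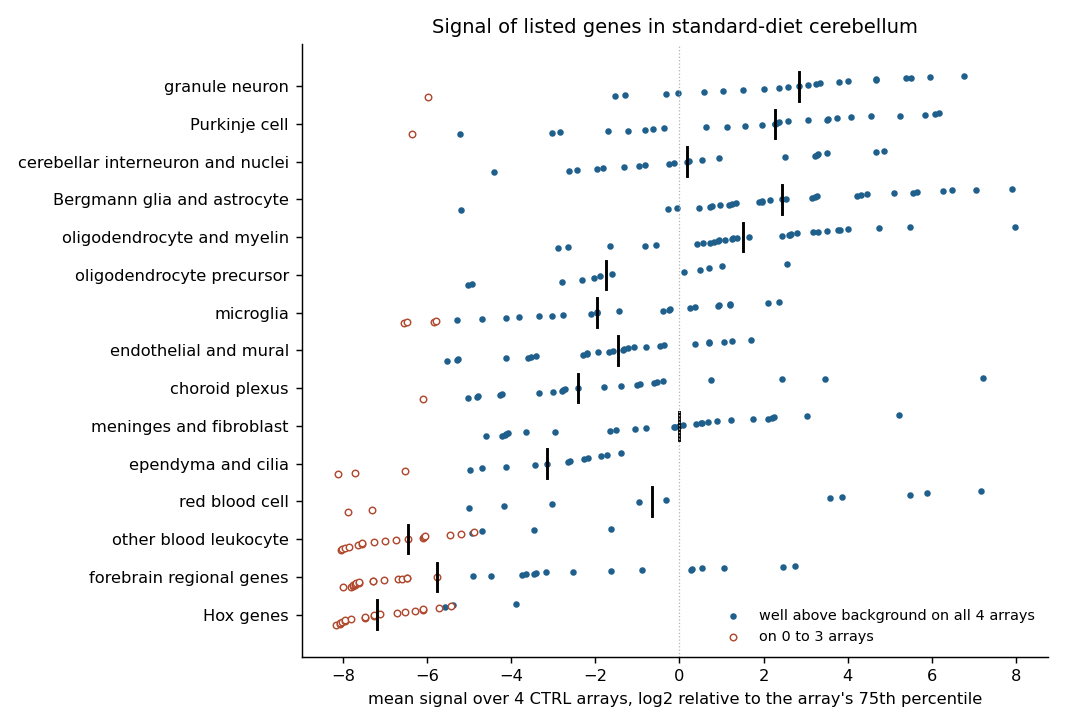
Mean signal over the 4 CTRL arrays (x axis, log2 relative to the array's 75th percentile) of each gene in 15 lists (rows), with the list median as a vertical bar. Filled points were well above background on all 4 arrays and open points on 0 to 3. The granule neuron, Purkinje cell and Bergmann glia lists have medians of 2.84, 2.28 and 2.44, and the Hox list has a median of -7.19.

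Genes that mark position along the brain axis differed in detection, but the cerebellar ones stood near the share of all named genes. Of 19 cerebellar patterning genes, 16 (84.2%) were well above background on all 4 arrays, against 73.4% of all named genes. Their median signal of -2.21 was close to the -2.18 of all named genes, and none stood in the brightest 10%. En2, the homeobox gene of the midbrain and cerebellar territory, read -0.12, -0.35, 0.06 and -0.24, and Pax5 averaged -1.0 ± 0.19 (SD, n = 4). Zic1, a zinc finger factor from the granule neuron list, averaged 2.38 ± 0.16, Nhlh1, a factor of newborn neurons, 2.10 ± 0.11, and Irx1 0.88 ± 0.09. Gbx2, Fgf8 and Ptf1a, which act in the embryo at the isthmus and in GABA neuron precursors, were well above background on none. Of 33 forebrain genes, 16 (48.5%) were well above background on all 4 arrays and 12 on none, among them Tbr1, Dlx1 and Six3. Bhlhe22, which is also made in the hindbrain, and Ppp1r1b, the DARPP-32 of striatal neurons, were the brightest of that list at 2.74 ± 0.12 and 2.46 ± 0.24.

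Hox genes, which are expressed from the hindbrain backwards and not in cerebellum, were well above background on all 4 arrays in 3 of 22 cases. Hoxd4 read -3.59, -3.96, -3.94 and -4.02, and Hoxc4 read -4.43, -6.24, -5.24 and -6.37. These and Hoxb4, the remaining one of the 3, were highest in replicate 1. Markers of monoamine, cholinergic and hypothalamic neurons were detected on all 4 arrays in 19 of 29 cases. Gal, a neuropeptide, averaged 1.98 ± 0.18, Th, the first enzyme of catecholamine synthesis, 0.57 ± 0.24, and the dopamine carrier Slc6a3 was detected on none. Slc5a7, the choline carrier of cholinergic terminals, and Calca, a neuropeptide gene that encodes calcitonin and CGRP, were highest in replicate 1, with Calca at -1.56, -2.95, -4.29 and -4.14. These are single genes. Replicate 1 was highest for 9 and lowest for 7 of the 19 measured genes of the monoamine, cholinergic and hypothalamic list. The median deviation from a gene's own mean there was 0.05 log2 units. In the neuropeptide list, which holds Calca, replicate 1 was highest for 11 and lowest for 7 of 28. How far neighbouring brainstem contributed to replicate 1 was not tested.

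Lists of other organs were detected less than the 73.4% of all named genes. Of 27 testis and ovary genes 9 were well above background on all 4 arrays, of 24 pancreas and gut genes 10, and of 21 pituitary and pineal genes 8. Growth hormone (Gh1), glucagon (Gcg) and Tnp1, a transition protein of spermatids, were on none. A wider view of what such calls mean comes from olfactory and vomeronasal receptor genes, a family picked by symbol after values had been seen. Of 1262 such genes on the array, 167 (13.2%) were well above background on all 4 arrays and 857 (67.9%) on none. Listed Y-linked genes had no named probe.

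Over all named genes, 11330 of 15442 (73.4%) were well above background on all 4 arrays, 1421 (9.20%) on 1 to 3 of them, and 2691 (17.4%) on none. The count was higher on brighter arrays, with 11589, 12440, 11994 and 11838 genes in replicates 1 to 4. Probes for curated RefSeq transcripts were detected on all 4 arrays in 73.3% of cases, against 61.9% for predicted transcripts and 63.6% for Ensembl transcripts. Detected genes were longer in the genome, with a median of 21.2 kb against 12.3 kb for genes seen on some arrays and 6.50 kb for genes seen on none. Among the detected, length and signal were nearly unrelated (Spearman's rho -0.05 across 11326 genes, which are not independent replicates). The call of detection is a setting: with the scanner software's weaker flag of a positive and significant signal, 80.6% in place of 68.9% of probes passed on all 4 arrays.

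The brightest named genes were of many kinds. After Mbp and Aldoc stood Ceacam9 at 7.80 ± 0.10 (SD, n = 4), Ppia, the cyclophilin A foldase, at 7.61 ± 0.06, and Actg1, the cytoplasmic gamma actin, at 7.55 ± 0.05. Twnk, the helicase of mitochondrial DNA, followed at 7.36 ± 0.11, with its other probe down at -1.33. Ttr, the thyroid hormone carrier secreted by choroid plexus, read 7.01, 7.49, 7.13 and 7.29. Hba-a1, an alpha globin of red blood cells, read 6.60, 7.25, 7.38 and 7.51. In both of these genes replicate 1 was lowest, and their SDs of 0.21 and 0.41 were the widest of the 30 brightest. The rest of the 30 ran from Rpl41 at 7.12 down to Rps29 at 6.41. They held the tubulins Tuba1a and Tuba1b, the calmodulin gene Calm2, the chaperone Hspa8, the kinase gene Mapk3 and the stimulatory G protein gene Gnas. Atp1b2, a sodium pump subunit of glia, Rtn1, Pebp1, Ubb and Igtp were also among them. Of the 100 brightest genes and unnamed probes 53 were unnamed, as were 9 of the first 10, so this roll is one of named genes only. In the 100 brightest named genes, 16 were ribosomal protein genes, 9 respiratory chain or ATP synthase genes, 9 cytoskeletal genes and 4 genes of glycolysis and energy buffering, 38 in all.

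The lists behind general cell work were fully detected and bright. All 75 ribosomal protein genes were well above background on all 4 arrays, 72 of them in the brightest 10%, with a median SD of 0.089. Rplp0, the stalk protein, read 6.62, 6.65, 6.68 and 6.66. Replicate 2 was highest for 50 of the 75, by a median of 0.09 above the gene's mean. All 68 respiratory chain and ATP synthase genes were detected in the same way, 61 in the brightest 10%. Cox6a1, a cytochrome oxidase subunit, averaged 7.10 ± 0.14 and Atp5f1a, the alpha subunit of ATP synthase, 6.92 ± 0.10, and replicate 2 was highest for 46 of the 68. Of 27 genes of glycolysis and energy buffering 23 stood in the brightest 10%, with brain creatine kinase Ckb at 5.92 ± 0.18. Got1, an aminotransferase, departed from that list with 2.77, 1.66, 1.81 and 1.6. Of 32 cytoskeletal genes 24 stood in the brightest 10%, and Pfn1, an actin-binding protein, was the most uneven with 0.31, 0.76, 1.17 and 1.44. Among genes of like signal, the median member stood at the 34.6th percentile of SD for ribosomal proteins and at the 47.1st, 50.6th and 57.4th for the respiratory chain, glycolysis and cytoskeletal lists.

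Synaptic genes were less bright as lists. Of 40 genes of vesicles and release, 39 were well above background on all 4 arrays and 10 stood in the brightest 10%. Cplx1, the complexin of inhibitory and Purkinje cell terminals among others, averaged 6.40 ± 0.05 (SD, n = 4), Vamp1 4.62 ± 0.07 and Vamp2 3.47 ± 0.26.

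All 26 glutamate receptor genes were well above background on all 4 arrays and 6 stood in the brightest 10%. Among NMDA receptor subunits, Grin2d averaged 4.79 ± 0.06 and Grin2c 4.67 ± 0.13, and Grin2b, the subunit of immature synapses, -4.40 ± 0.42. The probes of Grin1, another subunit, averaged -1.72 and -2.38. Probe signals of different genes do not give the make-up of the receptor. Of 26 GABA and glycine receptor genes, 18 were on all 4 arrays and 5 on none. Gabrd, which with Gabra6 forms the receptor of tonic inhibition in granule neurons, averaged 3.79 ± 0.18. Gabra5 and Gabrg3 were seen on some arrays only, and Gabrr2 and Glra3 on none.

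Channels followed a similar course. Of 47 potassium channel genes 43 were well above background on all 4 arrays, led by Kcnk1 at 4.33 ± 0.10 (SD, n = 4) and Kcna1, the channel of basket cell terminals, at 3.82 ± 0.14. Of 44 sodium and calcium channel and pump genes 40 were, with the sodium pump subunits Atp1b2 at 6.56 ± 0.19 and Atp1b1 at 6.06 ± 0.07. Cacna1a, the P/Q-type calcium channel, averaged 1.46 ± 0.13 and Scn1a 0.24 ± 0.12. All 30 calcium-binding genes were, 12 in the brightest 10%. Of 31 neuropeptide and granin genes 28 were, 9 in the brightest 10%, and the list was uneven between animals, with 9 of 28 in the highest 10% of SDs.

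Genes of late development were measurable. Of 25 genes of granule precursors and hedgehog signalling, 24 were well above background on all 4 arrays, with a median signal of -1.29. Atoh1, the factor that defines granule precursors, read -3.90, -4.24, -4.20 and -3.97. Gli1, the hedgehog target gene, averaged -1.15 ± 0.18 (SD, n = 4) and Barhl1, a factor of granule precursors, -1.29 ± 0.19. Dcx, a microtubule protein of migrating neurons, read -0.12, -0.75, -0.77 and -0.91. Of 32 cell division genes 30 were on all 4 arrays, among them Mki67 at -0.58 ± 0.14 and Pcna at 0.72 ± 0.11. Their median SD of 0.120 stood below that of all named genes by 0.018, a gap that shrank to 0.004 without replicate 1 and closed with quantile normalization.

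Lists of cell state differed in spread, with median SDs from 0.107 for heat shock genes to 0.386 for antigen presentation. Of 31 immediate early genes 26 were well above background on all 4 arrays. Nr4a1 read 1.46, 0.13, 1.07 and 0.41 and Nr4a2 read 2.17, 1.09, 2.17 and 1.17, both higher in replicates 1 and 3 than in 2 and 4. Fos read -1.81, -3.30, -2.68 and -3.32 in the same order, whereas Arc, another activity gene, was lowest in replicate 1 with -1.36, -0.81, -0.85 and -0.58. All 18 clock genes were detected on all 4 arrays, and Dbp, an output gene of the clock, differed little, with 3.94, 3.88, 4.16 and 4.01. Of 23 genes responsive to glucocorticoids 22 were, and Ddit4 read 1.83, 2.86, 2.52 and 2.92. Replicate 1 was lowest for 15 of these 22. All 23 heat shock and unfolded protein genes were, with none in the highest 10% of SDs. Hspa5, the chaperone of the endoplasmic reticulum, was higher in replicates 1 and 3, with 3.93, 3.55, 3.81 and 3.45. Interferon genes were in 22 of 27 cases, and Isg15, Irf7 and Rtp4 were highest in replicate 1, Isg15 with -3.29, -4.51, -4.35 and -4.47. Of 22 genes of antigen presentation 18 were, and RT1-CE16, a class I gene of the rat major histocompatibility complex, read -1.10, -2.67, -1.05 and -2.88. RT1 genes are near-identical copies, so their probes may share targets and the alleles of outbred Wistar rats differ.

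Animal-to-animal spread was small for most genes. Among the 11326 named genes whose representing probe was well above background on all 4 arrays, the median SD was 0.138 log2 units, the 5th percentile was 0.047 and the 95th 0.389. An SD of at least 0.5 was met by 265 of them (2.34%), and 8.12% stood in the highest 10% of SDs of all genes and unnamed probes. Over the 18780 genes and unnamed probes together the count was 530. It was 189 with normexp background correction on the median signals and 195 in the authors' deposited table. Leaving out probes with 1 spot gave 264, and leaving out an animal gave 457 to 695. Spread narrowed with brightness, from a median SD of 0.252 in the dimmest decile of detected genes to 0.10 in the brightest decile (Spearman's rho between signal and SD -0.42 across 11326 genes). On 1228 probes with 6 to 10 usable spots on an array, spots of a probe varied within an array by a median SD of 0.070, and the same probes varied between animals by 0.114. The SD between animals was the larger of the pair in 938 of these probes (76.4%). The pair is of unlike kind, because the first is an SD of single spots and the second an SD of array means over spots. Spots of an array also share RNA, labelling and hybridisation, so the first covers spot error only. The 76.4% is therefore not the share of probes in which animals differed beyond technical error.

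Replicate 1 stood farthest from the others. Across the 18780 genes and probes, pairs of arrays that held replicate 1 correlated at 0.991 to 0.992, and the other pairs at 0.994 to 0.995. It was the animal farthest from the rest for 4369 of the 11326 named genes, against 2095 to 2447 for each other animal. The median SD over all 18780 fell from 0.149 to 0.124 when replicate 1 was left out. It was also the dimmest array.

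**Figure D2:**
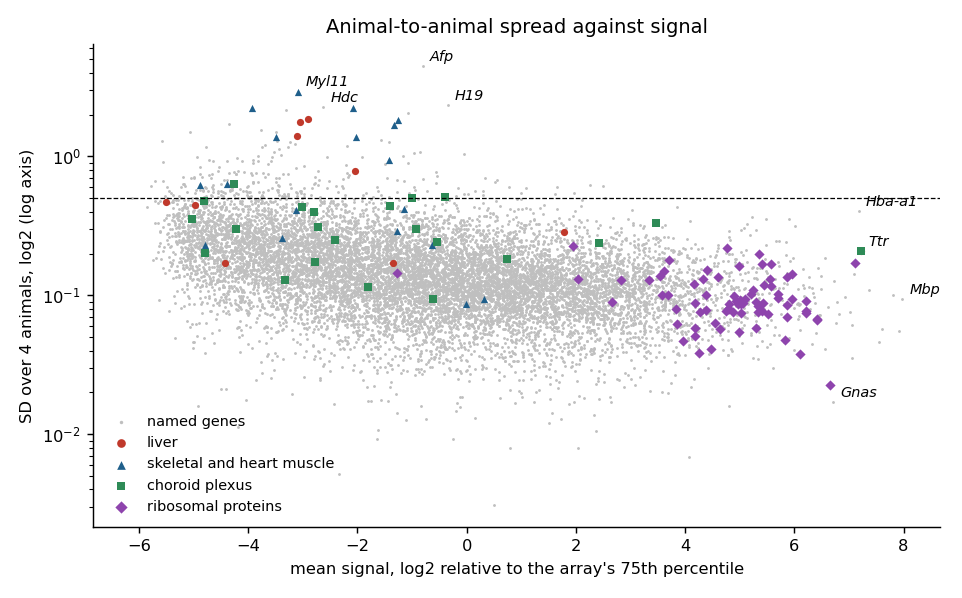
SD over the 4 CTRL animals (y axis, log2 units on a log axis) against mean signal (x axis, log2 relative to the array's 75th percentile) for the 11326 named genes well above background on all 4 arrays. Coloured symbols are members of 4 lists and the dashed line is an SD of 0.5. Most ribosomal protein genes lie low on the right, and Afp, Myl11, H19 and Hdc lie at the top with SDs of 4.49, 2.92, 2.33 and 2.27.

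Among named genes well above background on all 4 arrays, the widest spread was that of Afp, the alpha-fetoprotein of fetal liver and yolk sac. It read -5.13, 3.42, -4.19 and 2.71 in replicates 1 to 4, an SD of 4.49 and a ratio of 373 between the highest and the lowest animal. Replicates 2 and 4 were high and replicates 1 and 3 low, with no value between. Afp was measured by 2 spots, and these were not both well above background on every array. The size of the ratio is therefore uncertain. Alb, the plasma albumin, read -6.62, 2.23, -5.59 and 1.5 and was not well above background in replicate 1. Fgb, the fibrinogen beta chain, read 0.33 and -0.20 in replicates 2 and 4, and was not well above background in replicates 1 and 3, where it read -7.37 and -7.80. In the authors' deposited table, whose columns name the group and not the animal, Afp stood at log2 intensities of 6.46, 6.88, 12.94 and 13.84. So did Alb divide in the authors' deposited table, with 6.07, 6.26, 11.70 and 12.56.

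Other secreted liver proteins followed the same animals. Fga and Fgg, the remaining fibrinogen chains, F2, the prothrombin gene, and Serpinc1, which encodes antithrombin, were well above background in replicates 2 and 4 only, at -1.61 and -2.04, -1.77 and -2.41, -1.76 and -2.46, and -2.11 and -2.65. Ahsg, the fetuin A of fetal plasma, read -3.91, -1.19, -5.03 and -1.51. Serpina1, the antitrypsin gene, read -5.02, -1.39, -4.07 and -1.78, and Apoa1, an apolipoprotein of plasma, read -3.71, -1.81, -4.78 and -2.09. In each of these genes both values of replicates 2 and 4 exceeded both values of replicates 1 and 3. The adult liver enzyme genes Cps1, Cyp2e1, Cyp1a2, Pck1 and Tat were well above background on none of the arrays. Ttr and Rbp4, which choroid plexus and meninges also make, varied far less, with SDs of 0.21 and 0.29. Of the 29 liver genes, 10 were well above background on all 4 arrays, and 4 of these had an SD of at least 0.5; without replicate 1 they were 12 and 7.

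Hdc, which makes histamine in mast cells and other blood cells, shared that course with -4.70, -0.36, -4.47 and -1.0. So did Ahsp, the stabiliser of alpha globin in red cell precursors, with -1.84, 0.13, -1.89 and -0.25, and its other probe with -2.75, -0.82, -2.69 and -1.25. The mast cell genes Cma1, Cpa3 and Fcer1a were well above background on none. Alas2, the haem enzyme of red cell precursors, was instead low in replicate 1 only, with -1.06, -0.01, -0.19 and -0.07, as were Hba-a1 and Hbb, the latter with 5.40, 6.23, 5.93 and 6.03. Of 12 red cell genes, 10 were well above background on all 4 arrays, and 7 of those stood in the highest 10% of SDs, against 2 without replicate 1.

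Muscle genes stood out in replicate 3. Myl11, a myosin light chain of fast skeletal muscle, read -4.62, -4.66, 1.29 and -4.36. Tnnc2, the fast troponin C, read -2.53, -1.97, 1.49 and -1.97, and Tnni2, the fast troponin I, -2.05, -2.34, 1.2 and -2.18. Replicate 3 exceeded the next animal by at least 3.25 log2 units in each. Atp2a1, the calcium pump of fast muscle, read -3.55, -3.10, 1.24 and -2.91, and Tnnt3, the fast troponin T, -4.52, -5.19, -0.61 and -5.42. Myh8, the perinatal myosin heavy chain, read -2.02, -1.97, 1.98 and -2.28, and Myh1, an adult fast one, -2.82, -2.47, 0.01 and -2.84. Acta1, the skeletal actin, read -3.97, -3.70, -1.56 and -4.79. Myl1 was well above background in replicate 3 alone, at -1.99. Ckm, the muscle creatine kinase, read 0.30 there and at most -5.12 elsewhere.

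Genes that heart also uses were mixed. Myh6 and Myh7, the cardiac myosin heavy chains, were highest in replicate 3, with -4.55, -4.66, -3.47 and -4.89 and with -5.19, -5.24, -3.94 and -5.14. Actc1, the cardiac actin, read 0.36, 0.18, 0.37 and 0.37, Casq2 0.09, -0.01, -0.04 and -0.12, and Tnnt2 -1.54, -1.12, -1.51 and -0.95. Of the 18 muscle genes well above background on all 4 arrays, 14 were highest in replicate 3 and 10 had an SD of at least 0.5. Without replicate 3, 18 were detected and 1 had such an SD. Hbz, an embryonic globin, was also highest in replicate 3, with -4.47, -4.53, -1.34 and -3.67. In the authors' deposited table Myl11 stood at 6.62, 6.64, 6.80 and 11.53.

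**Figure D3:**
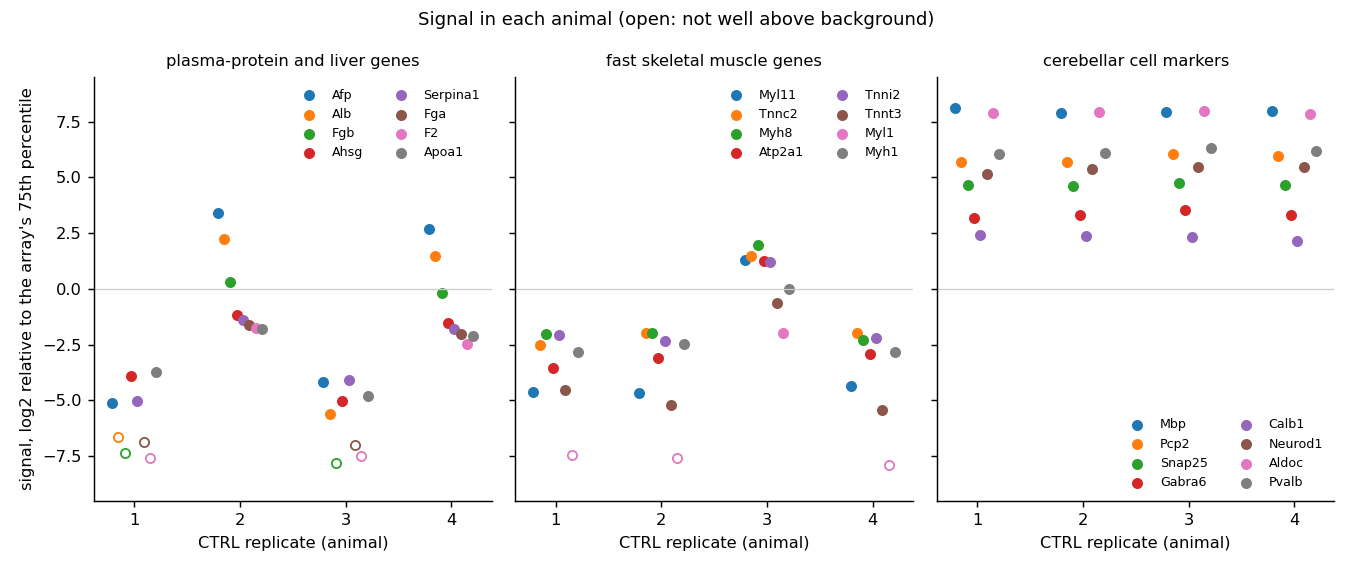
Signal in each of the 4 CTRL animals (y axis, log2 relative to the array's 75th percentile; x axis, replicate) for 8 genes of plasma proteins and liver, 8 of fast skeletal muscle and 8 cerebellar markers. Open points were not well above background. Liver genes are high in replicates 2 and 4 and muscle genes in replicate 3, while the cerebellar markers keep nearly the same height in all 4 animals.

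H19, an imprinted non-coding RNA that is abundant in fetal tissue and muscle, was low in replicate 1 alone, at -3.83 against 0.86, 1.08 and 0.50. Igf2, its imprinted neighbour, which in brain is made by choroid plexus and meninges, was lowest in the same animal with 3.00, 3.65, 3.42 and 3.75, a far narrower range. Choroid plexus and meningeal genes varied more than most, largely through replicate 1. Of 23 choroid plexus genes 22 were well above background on all 4 arrays, and 9 of the 22 stood in the highest 10% of SDs, against 5 without replicate 1. Replicate 2 was highest for 17 of the 22, for instance Folr1, a folate receptor, with -1.71, -0.52, -0.90 and -0.88. Sostdc1 read -1.04, 0.08, -0.59 and -0.07. All 27 meningeal and fibroblast genes were detected on all 4 arrays and 11 stood in the highest 10% of SDs, against 2 without replicate 1. The median SD of the meningeal list exceeded that of all named genes by 0.147, and by 0.031 without that animal. For choroid plexus the excess went from 0.162 to 0.079 and for red cell genes from 0.242 to 0.046. Replicate 4 was highest for 16 of the 27 meningeal and fibroblast genes. Ptgds, a prostaglandin synthase of leptomeninges, read 4.69, 5.39, 5.27 and 5.52. Col1a2, a fibrillar collagen, read 2.44, 3.25, 3.07 and 3.37, and Igfbp2 1.35, 2.64, 2.29 and 2.71. Replicate 1 was lowest in all 5 of Folr1, Sostdc1, Ptgds, Col1a2 and Igfbp2.

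The granule neuron, Purkinje cell and Bergmann glia lists showed no comparable shift. The median deviation from a gene's own mean stayed within 0.09 log2 units in every animal for granule neuron, Purkinje cell and Bergmann glia genes. For the 18 muscle genes it was 0.93 in replicate 3, and for the myelin list -0.18 in replicate 1. Of the genes in the granule neuron list 0 stood in the highest 10% of SDs, in the astrocyte list 0 and in the myelin list 0, and in the Purkinje list 2 of 27. Over all named genes that share was 8.12%. It was larger in some other neuronal lists, with 7 of 26 glutamate receptor, 9 of 28 neuropeptide and granin, and 7 of 19 monoamine, cholinergic and hypothalamic genes. Interneuron and potassium channel genes had 3 of 21 and 6 of 43. Calcium-binding genes had 3 of 30 and sodium and calcium channel and pump genes 2 of 40. Vesicle and release genes and GABA and glycine receptor genes had 0.

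**Figure D4:**
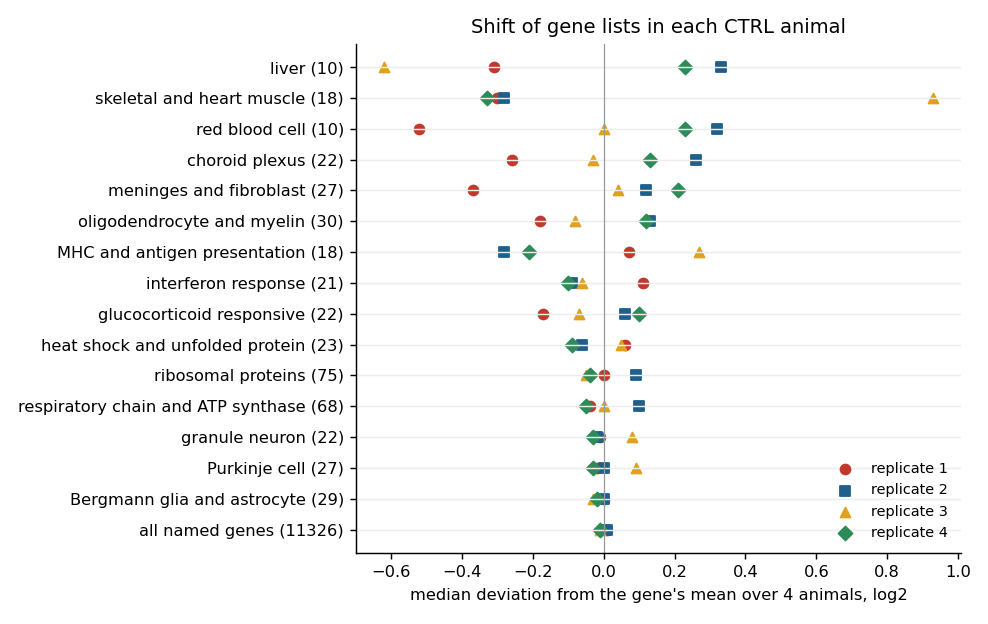
Median deviation of the members of 15 lists and of all named genes (rows, number of members well above background on all 4 arrays in brackets) from each gene's mean over the 4 animals (x axis, log2 units), for each CTRL animal. The liver and muscle rows hold 10 of 29 and 18 of 27 genes and leave out those detected in some animals only. The muscle list sits at 0.93 in replicate 3, and the neuron lists lie within 0.09 of 0.

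Of the 25 most variable named genes, 10 belonged to the liver or muscle lists and 13 to no list. Sgpp2, a phosphatase of sphingosine phosphate measured by 1 spot, was high in replicate 3 alone with -4.83, -5.13, -1.84 and -5.62. Cox8b, the muscle form of a cytochrome oxidase subunit, read -3.87, -3.53, -1.32 and -3.89. Ascl3 and B4galt1 were high in replicate 1 alone, with -1.49 and -2.87 there. Ascl3 read -4.42, -4.87 and -4.33 in the other animals and B4galt1 -5.66, -5.47 and -6.29. Gpr35 was low in replicate 1, with -5.29 against -2.56 to -3.47. So was Pcmtd1 on its brightest probe, with -3.22 against -0.44 to -1.39. The other probe of Pcmtd1, also well above background on all 4 arrays, was highest in replicate 1, with -2.88 against -3.31 to -3.51. Sgcb, a sarcoglycan, read -0.44, -2.64, -0.42 and -2.79 with its brightest probe, while its other probe read -2.02, -1.95, -2.11 and -2.08. The probes of Sgcb thus disagreed on whether the animals differed. Ankrd2 had the lowest mean of the 25, with -4.09, -7.25, -5.63 and -5.36. For B4galt1, Gpr35 and Ankrd2, each measured by 2 spots, the spots were not both well above background on every array.

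Of the 15442 named genes, those in which 1 animal exceeded the next by a factor of 2 or more numbered 143, 73, 111 and 12 for replicates 1 to 4. The representing probe was well above background on all 4 arrays in only 35, 6, 28 and 0 of them. In the rest, at least 1 of the values compared was not well above background, so the size of the gap is uncertain. Among the 111 of replicate 3, 15 were in the muscle list, and Actn3 and Myoz1, further genes of fast muscle named after their values were seen, were 2 of the rest. Olfactory and vomeronasal receptor genes, 8.17% of all named genes, made up 39, 11, 20 and 4 of the 143, 73, 111 and 12 genes. These are shares of 27.3%, 15.1%, 18.0% and 33.3%. Where any gene of these 4 counts had repeated spots, all spots were well above background for 29 of 117 genes in replicate 1 and for 41 of 90 in replicate 3. The widest gaps between detected and undetected arrays belonged to Fgb and then to Or5b116, an olfactory receptor gene measured by 1 spot. Or5b116 read -2.47 in replicate 1 and at most -8.04 elsewhere. Tmc7, Gsta4l1 and Stox1 also rested on 1 spot, with Tmc7 at -1.10 and Gsta4l1 at -2.68 in replicate 1 and Stox1 at -1.82 in replicate 3. Or9e1b read -2.07 in replicate 3 alone, where its 2 spots did not both pass. Fgb, Fga, Fgg, F2, Serpinc1 and Myl1 were each measured by 2 spots, and both spots were well above background wherever these genes were called.

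The steadiest of the bright genes held their level to within a few hundredths. Abi2, a regulator of actin branching, read 4.07, 4.08, 4.08 and 4.07. Arf3, a small GTPase of the Golgi, read 4.79, 4.81, 4.82 and 4.79, and Gnas 6.70, 6.70, 6.73 and 6.69. Tars2 and Qars1, for tRNA synthetases of threonine and glutamine, averaged 2.37 ± 0.01 and 2.62 ± 0.02 (SD, n = 4). The others were Sh3bp5l, Smurf2, Fam131b, Ssrp1 and Flot1, each with an SD of 0.02.

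Probes of the same gene could lie very far apart. Pigr, the receptor that carries antibodies across epithelia, had probes at 4.94 and -8.12, and Cyp4a8, Tmem47 and Tp63 had lowest probes at -7.43, -7.72 and -7.65 against brightest ones at 4.18, 3.87 and 3.05. S100b, a calcium-binding protein of astrocytes, had probes at 4.23 and -6.94. For Mbp the pair was 7.97 and -2.15, for Igtp 6.44 and -3.92 and for Rapgef6 5.30 and -4.70. A high rank thus rests on the brightest probe, and with the median of a gene's probes in its place 88 of the 100 brightest genes and unnamed probes were the same.

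Promoters of 4 genes that varied between animals are shown beside those of 3 genes that were steady on their brightest probe. The sequences are from RefSeq on GRCr8 and give the 100 bases before the annotated start, 5′ to 3′ on the gene's strand. In the first 4, which belong to genes that varied between animals, capitals mark TATAA, the core of the TATA box where the general transcription machinery binds. In the last 3, which belong to the steadiest bright genes, capitals mark each CG. The first 4 also hold CG, which is left unmarked there, so the capitals do not compare CG between the groups.
Afp, chr14:17875646-17875745, minus strand: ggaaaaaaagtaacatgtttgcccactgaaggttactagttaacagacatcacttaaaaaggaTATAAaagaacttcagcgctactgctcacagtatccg
Myl11, chr1:191260189-191260288, plus strand: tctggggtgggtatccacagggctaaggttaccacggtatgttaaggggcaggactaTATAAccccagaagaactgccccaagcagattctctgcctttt
Acta1, chr19:68784195-68784294, minus strand: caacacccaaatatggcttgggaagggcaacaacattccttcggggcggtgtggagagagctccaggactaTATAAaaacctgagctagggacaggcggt
Hba-a1, chr10:15842581-15842680, minus strand: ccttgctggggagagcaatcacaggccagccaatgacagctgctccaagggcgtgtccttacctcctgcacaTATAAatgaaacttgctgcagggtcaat
Abi2, chr9:69321105-69321204, plus strand: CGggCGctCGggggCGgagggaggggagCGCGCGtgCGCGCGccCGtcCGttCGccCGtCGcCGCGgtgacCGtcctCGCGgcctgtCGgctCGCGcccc
Tars2, chr2:185999114-185999213, minus strand: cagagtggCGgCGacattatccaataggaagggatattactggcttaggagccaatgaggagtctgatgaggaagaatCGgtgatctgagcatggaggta
Arf3, chr7:131790980-131791079, minus strand: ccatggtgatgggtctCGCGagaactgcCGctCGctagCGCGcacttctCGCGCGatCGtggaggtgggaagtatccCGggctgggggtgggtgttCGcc

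The first base of TATAA lies at -37, -43, -29 and -28 from the start in these 4 promoters, and the 3 steady promoters hold 23, 3 and 12 CG. The 4 were chosen because they hold the motif, so the shares over all genes are the measurement. A promoter of 300 bases (250 before to 50 after the start) was taken for the 12180 named genes that have a single one in the table. TATAA was searched on the gene's strand between 45 and 16 bases before the start. It was found in 3.92% of all 12180, in 2.56% of detected genes outside the highest 10% of SDs, in 6.24% of those within it, and in 9.31% of the 204 genes with an SD of at least 0.5. The liver list had it in 5 of 23, the muscle list in 6 of 22 and ribosomal protein genes in 7 of 59, while respiratory chain genes had it in 0 of 61. On the opposite strand the same letters, TTATA, were found in 1.59% of the 12180. By signal the share was lowest in the middle, at 1.24% in the seventh decile of detected genes, and reached 4.95% in the brightest decile. In the 24206 genes of the whole table with 1 promoter it was 3.5%.

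A pair of further motifs was counted over all 300 bases. CAGCTG, a form of the E-box read by muscle and neuronal bHLH factors and the same on both strands, was in 12 of 22 muscle promoters and in 16% of all 12180. GTTAAT, part of the site of the liver factor HNF1 searched on both strands, was in 5 of 23 liver promoters and in 6.31% of all. These are descriptions of letters in a window and say nothing of binding.

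The content of CpG followed detection. The median ratio of observed to expected CpG was 0.74 in the promoters of genes well above background on all 4 arrays, 0.29 in those seen on 1 to 3 and 0.21 in those seen on none. Their median GC content was 60.3%, 51.7% and 44.7%. Within detected genes the ratio went from 0.49 in the dimmest decile to 0.82 in the brightest, and from 0.79 in the decile with the smallest SD to 0.55 in the decile with the largest. Dim genes have larger SDs, so the relations to signal and to SD are not separate. The muscle, liver and red cell lists had median ratios of 0.23, 0.25 and 0.16, and the granule neuron and Purkinje cell lists 0.56 and 0.68.

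**Figure D5:**
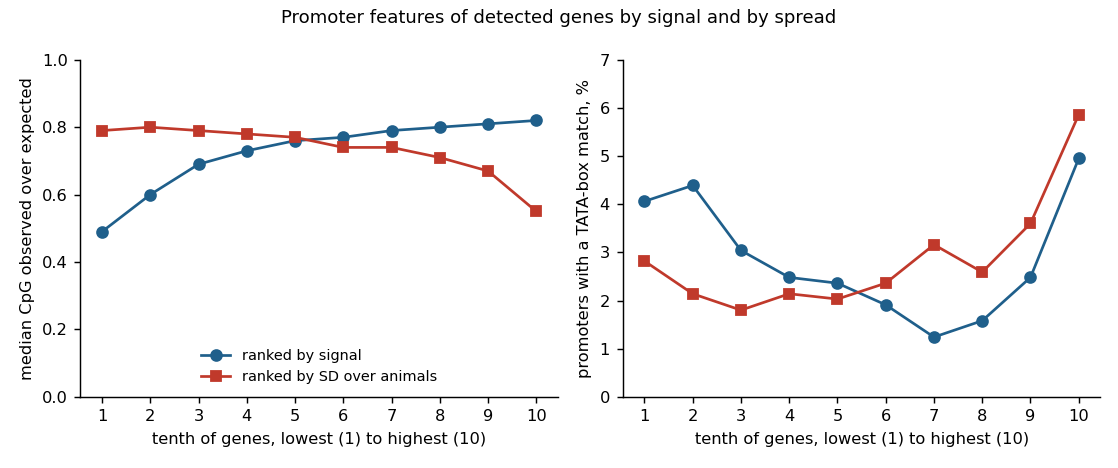
Median ratio of observed to expected CpG (left) and percent of promoters with a TATA-box match (right) in deciles of detected genes (x axis, lowest to highest), ranked by signal (circles) or by SD over the 4 animals (squares). Each decile holds 887 or 888 genes. The CpG ratio climbs from 0.49 to 0.82 with signal and drops from 0.79 to 0.55 with spread, and the share with a TATA match is highest in the last decile of each ranking, 4.95% and 5.86%.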

How the data were processed

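Cy3-labelled cerebellar RNA was hybridised to 1-colour Agilent arrays, all 4 CTRL arrays on 1 slide. Per the file headers, the authors used Agilent Feature Extraction, which subtracted background and detrended within the array, and the deposited processed intensity was not scaled between arrays. The deposited 0 or 1 flags, listed as a score, are the software's own calls. The authors' deposited table holds normalized intensity, by a method not given in the sources used here, and its columns name the group but not the array.

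Control spots and spots with outlier flags were left out, spots of a probe were averaged, and log2 of the intensity was set against each array's 75th percentile. A probe counted as well above background where at least 50% of its spots were. A gene took its brightest probe for level and SD, and counted as detected if any probe was. Names came through unversioned accessions and RefSeq on GRCr8. The 42 gene lists had 1291 members, of which 10 matched no RefSeq gene and 1171 were on the array. Members and lists were chosen with earlier results of these data known. Named genes were the 30 brightest, the 25 most variable, the 12 with the widest gap between detected and undetected arrays, the 10 steadiest of the brightest 10%, the 8 with the widest range among their probes, and list members, and others are said to be chosen after their values were seen. A few of these genes were left out and are not reported here. With 1 group no comparison was tested, and single animals far from the rest were marked by Dixon's criterion. The mean spot signal was not used here, so normexp (offset 50) ran on median signals in its place. The script for spread was tested on simulated data. Python 3.11.15, pandas 2.3.3, numpy 2.4.6, scipy 1.17.1, R 4.3.3 and limma 3.58.1 were used. The number of arrays limits the precision.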

Additional observations from a re-analysis of the deposited data

Results flagged for a closer look

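Of 193 named items examined, 22 (11.4%) had 1 animal whose gap to the nearest other, divided by the range of the 4, exceeded Dixon's critical value for 4 samples. Chance alone passes that limit in about 1 of 20 groups. Many of these items were named for their wide spread or for a gap between animals, so their share is not evidence of more animals apart than chance gives. Of the named genes well above background on all 4 arrays, 5.97% passed it. The animal apart was replicate 3 in 13 of the 22, replicate 1 in 8 and replicate 2 in 1.

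Muscle genes with replicate 3 high gave 0.950 for Myl11, 0.928 for Myh8, 0.923 for Myl1, 0.918 for Myh7, 0.919 for Tnni2, 0.893 for Actn3, 0.891 for Myoz1, 0.871 for Myh1, 0.866 for Atp2a1 and 0.860 for Tnnc2. Cox8b gave 0.859 and Stox1, measured by 1 spot, 0.850 in the same animal. Grin2d gave 0.852 there too, over a range of 0.13 log2 units.

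Replicate 1 was high with 0.940 for Irf7, 0.866 for Isg15, 0.841 for Ascl3 and 0.835 for Gabrg3. Or5b116, Gsta4l1 and Tmc7, each measured by 1 spot, gave 0.903, 0.893 and 0.854 in that animal. It was low for H19 with 0.883. Actc1, the cardiac actin, gave 0.929 with replicate 2 low, over a range of 0.19.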

How the results depend on the processing

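Of 56 alternative values for counts and medians, 46 stayed within the limits set for them and 10 moved. For the levels and SDs of named genes 255 stayed and 93 moved. For the spread of lists against all genes 215 of 328 values stayed, 32.6% moved and 6 reversed. The sign changed under at least 1 alternative for 16 of 41 lists, none of which differed from all genes by more than 0.035 at first. The Purkinje difference went from -0.022 to 0.013 without replicate 1 and the interneuron difference from -0.009 to 0.016 with quantile normalization. The share of probes detected on all 4 arrays went from 68.9% to 80.6% with the positive-and-significant flag. The median SD of 0.149 became 0.128 in the authors' deposited table and 0.210 with no detection filter, and 0.124 to 0.148 with an animal left out. The 530 genes and probes with an SD of at least 0.5 became 189 with normexp, 195 in the authors' deposited table, 3615 with no detection filter and, chosen after seeing the data, 264 without probes of 1 spot and 508 without 5 lists of other tissues. Leaving out an animal gave 457 to 695. Of the 100 most variable, 9 were shared with no detection filter and 62 to 87 with an animal left out, the fewest without replicate 1. Of the 100 brightest, 88 to 100 were shared under every alternative run. The median SD of sodium and calcium channel genes lay above that of all genes by 0.005 with quantile normalization, with scaling by the median of detected probes and in the authors' deposited table, the reverse of its main direction, and by -0.001 to 0.006 with an animal left out. The cause of these changes was not tested. No paired analysis was possible because 1 group was described. Dim genes near background have the least certain SDs.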
